A study of Mus musculus with 12 samples.

Results

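TAL1 and LYL1, the E proteins that pair with them and the ID proteins that keep E proteins off DNA were followed as mRNA in induced MEL cells, a mouse erythroleukemia line. The set comprised the genes Tal1, Lyl1, Tcf3, Tcf4, Tcf12, Id1, Id2 and Id3. These are 8 of the 37991 genes in the count files, chosen by name as blood basic helix-loop-helix (bHLH) factors, their E-protein partners and their ID inhibitors. All 8 passed the filter on low counts in the fit of all 12 libraries. Polyadenylated RNA was sequenced from 12 libraries in 4 groups of 3. The FL group was LDB1 knockdown cells that carried a construct for the whole Ldb1 protein, and the delta45 group was LDB1 knockdown cells with the Ldb1 delta 4/5 construct. The KD group was LDB1 knockdown cells with no construct named in the labels, and the control group was wild-type MEL cells. All groups were induced. The labels do not say how the knockdown was made, whether a group was 1 clone, or whether replicate libraries were made from different cultures, so p-values measure the spread between these libraries, which may be technical.

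TAL1 and LYL1 are closely related bHLH proteins of blood cells that bind DNA as a dimer with an E protein, made from Tcf3, Tcf4 or Tcf12, at sites called E-boxes. In erythroid cells the TAL1 dimer sits with GATA1, LMO2 and LDB1 in a complex that spans an E-box and a nearby GATA site. ID proteins have the dimerization domain but no DNA-binding region, so an E protein bound by an ID protein cannot form such a dimer. The balance of E and ID proteins is a well-known control point in lymphoid and muscle differentiation.

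Ldb1 reads, which count endogenous and construct mRNA together, checked the labels. They gave 3210 to 3696 CPM (reads scaled to a common library size by the TMM method) in FL, 750 to 781 in delta45, 97.1 to 159 in KD and 637 to 773 in control. Gene reads ranged from 8783970 to 20464959 per library. The KD libraries differed most among themselves, with a chi-square per degree of freedom of 32.2 to 96.0 between pairs, against 2.22 to 24.1 within the other groups. The share of reads that aligned to several places was 42.26 to 47.12% in FL, 38.69 to 39.22% in delta45, 42.69 to 48.51% in KD and 50.6 to 53.31% in control. Of the 10 erythroid genes on the marker list, including the globins, all had reads in every group, and their summed level was 25320 to 33195 CPM in FL, 2257 to 2653 in delta45, 1742 to 3619 in KD and 10480 to 10841 in control. Marker genes of other blood cells moved with the groups too. Megakaryocyte markers, 0 of 8 without reads, summed to 2608 to 2754 CPM in FL, 134 to 155 in delta45, 748 to 800 in KD and 825 to 925 in control. Myeloid markers, 0 of 8 without reads, summed to 16.8 to 19.3 CPM in FL, 7.31 to 9.26 in delta45, 32.7 to 42.5 in KD and 57.4 to 71.0 in control. Of these 8, 3 were under 1 CPM in every library, and Spi1 alone averaged 55.7 CPM in control. Mast cell and basophil markers summed to 1.35 to 2.3 CPM in FL, 1.73 to 2.27 in delta45, 6.73 to 11.2 in KD and 5.76 to 6.32 in control, with Mcpt8 and Ms4a2 at 0 reads. Stromal and endothelial markers summed to 22.5 to 29.8 CPM in FL, 11.8 to 13.5 in delta45, 22.1 to 53.0 in KD and 38.7 to 44.8 in control, with Col1a2 at 0 reads. Of these 8 genes, 4 were under 1 CPM in every library. Most of the sum came from Pdgfrb, which averaged 23.5 CPM in FL, 11.3 in delta45, 32.9 in KD and 33.1 in control. The part of these markers in the results was not tested, and in bulk RNA a change in the number of cells of a type and a change in RNA per cell cannot be told apart.

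Promoters are shown for Tal1, Lyl1 and Id3, each of which differed strongly between groups. RefSeq sequences of GRCm38.p6, from 250 bases before to 50 bases after the transcription start, were at hand for 6 of the 8 genes, all but Id1 and Tcf4. Each is printed on the plus strand, which is also the gene's strand. Capitals mark E-boxes (CANNTG) and GATA sites (the letters GATA with either A or T before them and either A or G after them), searched on both strands.
Tal1 start 1, chr4:115056176-115056475: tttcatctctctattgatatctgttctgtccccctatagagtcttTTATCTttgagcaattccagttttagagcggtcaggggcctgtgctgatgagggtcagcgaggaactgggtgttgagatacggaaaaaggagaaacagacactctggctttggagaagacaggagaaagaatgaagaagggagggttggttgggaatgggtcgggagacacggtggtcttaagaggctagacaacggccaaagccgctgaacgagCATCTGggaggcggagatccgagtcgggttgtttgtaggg
Tal1 start 2, chr4:115057561-115057860: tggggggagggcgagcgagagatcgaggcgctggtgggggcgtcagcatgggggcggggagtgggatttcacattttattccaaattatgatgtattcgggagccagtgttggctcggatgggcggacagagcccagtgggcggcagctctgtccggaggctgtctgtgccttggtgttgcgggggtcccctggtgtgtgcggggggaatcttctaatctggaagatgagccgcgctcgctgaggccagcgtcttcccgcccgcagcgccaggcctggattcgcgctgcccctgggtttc
Lyl1, chr8:84701207-84701506: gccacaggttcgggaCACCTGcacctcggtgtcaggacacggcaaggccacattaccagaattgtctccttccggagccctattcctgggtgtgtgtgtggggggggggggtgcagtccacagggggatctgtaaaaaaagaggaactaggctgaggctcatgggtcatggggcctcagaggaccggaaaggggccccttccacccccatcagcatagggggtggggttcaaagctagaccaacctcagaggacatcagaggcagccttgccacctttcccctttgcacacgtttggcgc
Id3, chr4:136143572-136143871: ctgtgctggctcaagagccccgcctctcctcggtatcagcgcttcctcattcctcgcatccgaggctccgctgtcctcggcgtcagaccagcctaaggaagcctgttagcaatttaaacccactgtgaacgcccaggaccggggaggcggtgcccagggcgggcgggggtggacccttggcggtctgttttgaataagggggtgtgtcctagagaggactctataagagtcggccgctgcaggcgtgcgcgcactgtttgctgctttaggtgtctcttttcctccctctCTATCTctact
With the start counted as position 1, the window of the first Tal1 start had a GATA site at position -205, read as TTATCT on the plus strand, and an E-box CATCTG at position 11, whereas the window of the second start held neither. The Lyl1 window had an E-box CACCTG at position -235, which reads CAGGTG on the minus strand. In the Id3 window the only match was a GATA site, read as CTATCT, at position 40. Among all 32851 promoters of that table, 72.3% held an E-box of any form, 20.2% held the form CAGGTG and 29.8% held a GATA site, so such matches are common and say nothing of binding in these cells.

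Tal1, which encodes the erythroid bHLH factor of the complex, was lowest in control and highest in FL. Its level was 1787, 1845 and 1790 CPM in the FL libraries, 763, 746 and 757 in delta45, 779, 1169 and 1609 in KD, and 499, 505 and 576 in control. No pair of groups overlapped, yet the lowest KD library lay just above the highest delta45 library, and the KD libraries covered a range of more than 2-fold. Mean Tal1 was 1807 ± 32.6 CPM in FL, 755 ± 8.82 in delta45, 1186 ± 416 in KD and 527 ± 42.7 in control (SD, n = 3 each). The change was 1.78 ± 0.20 on the log2 scale (SE) in FL against control, a 3.43-fold higher level (edgeR adjusted p = 5.61e-06). KD cells also had more Tal1 than control, 2.25-fold (log2 1.17 ± 0.19, edgeR adjusted p = 0.000267). The rise in delta45 against control was smaller, 1.43-fold (log2 0.52 ± 0.19, edgeR adjusted p = 0.0282), and lost its call without delta45 replicate 1, control replicate 1 or control replicate 2, with edgeR adjusted p between 0.0518 and 0.0854.

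Tal1 also differed among the 3 knockdown-derived groups. FL exceeded delta45 2.39-fold (log2 1.26 ± 0.19, edgeR adjusted p = 0.000107), and FL exceeded KD 1.52-fold (log2 0.61 ± 0.19, edgeR adjusted p = 0.0149). The second of these was no longer called when libraries were scaled by their totals alone (log2 0.36, edgeR adjusted p = 0.0835). Under that scaling the median gene stood at -0.33, and Tal1 was 0.69 above it. Delta45 was 1.57-fold lower than KD (log2 -0.65 ± 0.19, edgeR adjusted p = 0.00998). That fall was -0.37 without KD replicate 3, the KD library with the most Tal1, and stayed called.

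Lyl1, the relative of Tal1, was highest in the KD libraries. It had 32.2, 45.3 and 41.2 CPM in FL, 34.7, 39.9 and 43.3 in delta45, 80.9, 171 and 183 in KD, and 43.9, 42.9 and 39.1 in control. The FL, delta45 and control libraries overlapped, and every KD library lay above all of them. KD exceeded control 3.45-fold (log2 1.79 ± 0.25, edgeR adjusted p = 6.63e-05). Delta45 was 3.69-fold lower than KD (log2 -1.88 ± 0.25, edgeR adjusted p = 3.65e-05), and FL was 3.66-fold lower than KD (log2 -1.87 ± 0.25, edgeR adjusted p = 3.33e-05). FL and delta45 did not differ beyond their spread (log2 0.01, 95% interval -0.46 to 0.49), nor did either differ from control (log2 -0.08, interval -0.56 to 0.39, for FL and -0.10, interval -0.57 to 0.38, for delta45). In the GENCODE M21 annotation an exon of Nfix overlaps Lyl1 on the other strand, and the library kit did not mark strand. Nfix averaged 134 ± 8.79 CPM in FL, 162 ± 12.2 in delta45, 139 ± 24.2 in KD and 57.0 ± 2.77 in control (SD, n = 3 each). The part of its reads in the Lyl1 counts was not tested.

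**Figure D1:**
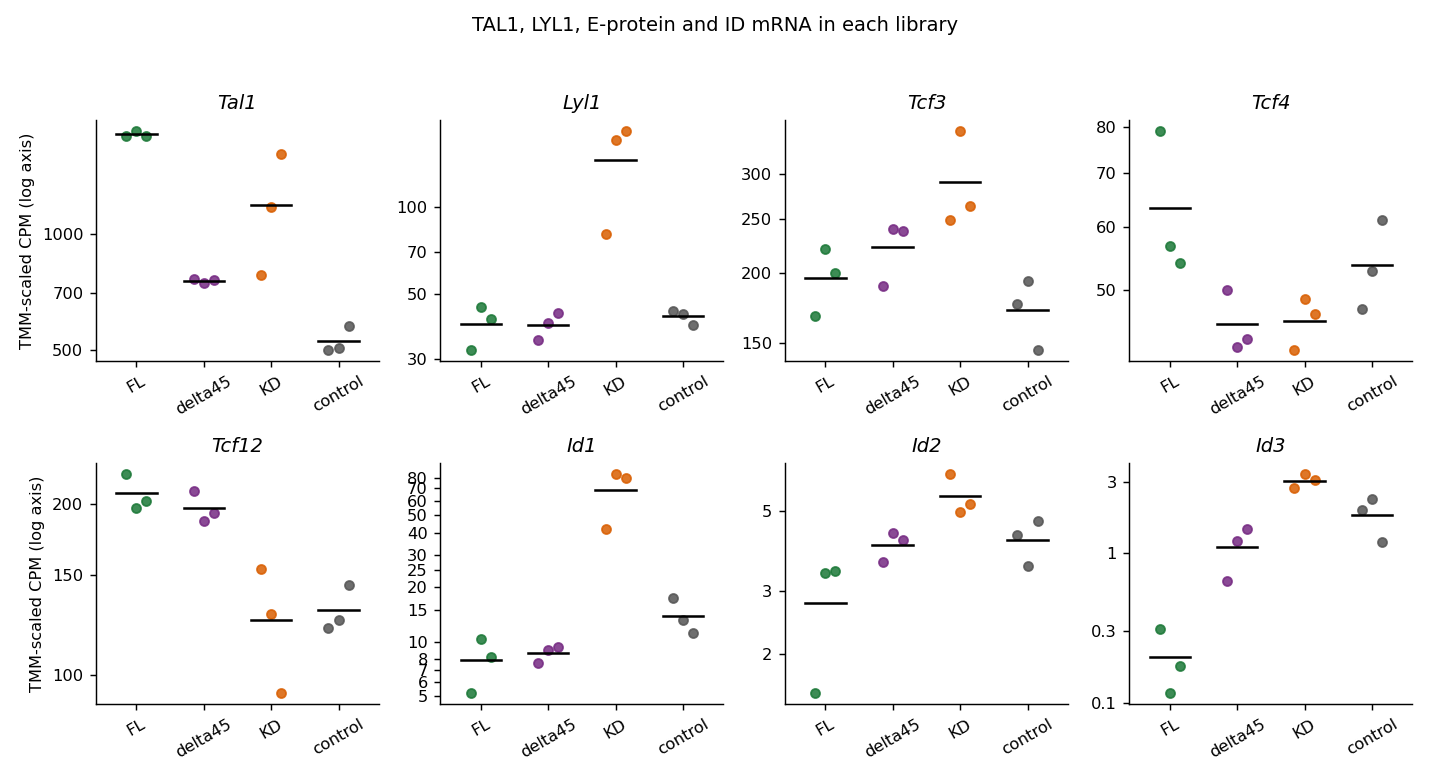
Level of each of the 8 genes in TMM-scaled CPM (log axis, a separate scale for each gene) in the FL, delta45, KD and control libraries. Points are libraries and bars are means of 3. Tal1 is highest in FL at 1787 to 1845 CPM, Lyl1 and Id1 are highest in KD, and Id3 is lowest in FL at 0.116 to 0.313 CPM.

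The 3 E-protein genes varied less and not in one direction. Between the highest and the lowest group mean the ratio was 1.69 for Tcf3, 1.4 for Tcf4 and 1.67 for Tcf12, against 3.43 for Tal1 and 8.67 for Id1. Tcf3, whose splice forms are the E proteins first described at immunoglobulin enhancers, had 168, 221 and 200 CPM in FL, 190, 240 and 238 in delta45, 249, 358 and 263 in KD, and 176, 194 and 146 in control. All KD libraries were above those of the other groups, which overlapped one another. KD exceeded control 1.69-fold (log2 0.75 ± 0.16, edgeR adjusted p = 0.00208). FL was 1.48-fold lower than KD (log2 -0.56 ± 0.16, edgeR adjusted p = 0.0101), a call lost without KD replicate 2, the KD library with the most Tcf3 (log2 -0.32, edgeR adjusted p = 0.104), or without FL replicate 1 (log2 -0.46, edgeR adjusted p = 0.051). Tcf3 in delta45 lay between, at 0.37 against control (edgeR adjusted p = 0.062) and -0.38 against KD (edgeR adjusted p = 0.0583). Both values sat near the threshold and passed it under several other settings.

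Tcf12, which encodes the E protein HEB, followed another order, with FL and delta45 high and KD and control low. The libraries had 226, 197 and 203 CPM in FL, 211, 187 and 193 in delta45, 154, 128 and 92.8 in KD, and 121, 125 and 144 in control. FL and delta45 overlapped each other, as did KD and control, and the 2 pairs were apart. FL exceeded control 1.6-fold (log2 0.68 ± 0.15, edgeR adjusted p = 0.00195) and KD 1.67-fold (log2 0.74 ± 0.15, edgeR adjusted p = 0.00119). With library totals as the scale the FL against KD change was 0.46 and was still called. Delta45 exceeded control 1.52-fold (log2 0.60 ± 0.15, edgeR adjusted p = 0.00388) and KD 1.58-fold (log2 0.66 ± 0.15, edgeR adjusted p = 0.00255). KD against control was -0.06, with an interval of -0.36 to 0.24, and FL against delta45 was 0.08, with an interval of -0.22 to 0.38.

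Tcf4, the E-protein gene best known from plasmacytoid dendritic cells, moved least. It had 79.1, 56.8 and 54.1 CPM in FL, 50.1, 42.4 and 43.5 in delta45, 42.1, 48.7 and 46.7 in KD, and 47.3, 52.8 and 61.2 in control. FL replicate 1 stood above every other library, and the lowest control library was inside the range of delta45 and KD. FL exceeded KD 1.38-fold (log2 0.47 ± 0.15, edgeR adjusted p = 0.0193) and delta45 1.39-fold (log2 0.48 ± 0.15, edgeR adjusted p = 0.0174). Without FL replicate 1 neither difference was called, at log2 0.28 (edgeR adjusted p = 0.113) and 0.29 (edgeR adjusted p = 0.0979). Neither was called with library totals as the scale, at 0.2 (edgeR adjusted p = 0.264) and 0.2 (edgeR adjusted p = 0.26). Against control, the log2 change was 0.23 in FL (edgeR adjusted p = 0.204), -0.25 in delta45 (edgeR adjusted p = 0.171) and -0.23 in KD (edgeR adjusted p = 0.223).

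Id1, an ID gene that BMP signalling induces in many cell types, had the largest changes among the well-covered genes of the set. It had 5.21, 10.3 and 8.24 CPM in FL, 7.59, 9.01 and 9.31 in delta45, 42.0, 83.9 and 80.4 in KD, and 17.4, 13.2 and 11.2 in control. Every KD library was above every control library, and every control library was above every FL and delta45 library. KD exceeded control 4.96-fold (log2 2.31 ± 0.28, edgeR adjusted p = 2.39e-05). FL was 8.66-fold lower than KD (log2 -3.11 ± 0.29, edgeR adjusted p = 1.82e-06) and delta45 was 7.97-fold lower than KD (log2 -2.99 ± 0.29, edgeR adjusted p = 2.88e-06). Against control the falls were 1.74-fold in FL (log2 -0.80 ± 0.29, edgeR adjusted p = 0.0301) and 1.6-fold in delta45 (log2 -0.68 ± 0.28, edgeR adjusted p = 0.0491). These 2 calls were near the threshold. The FL call was lost without any 1 of FL replicates 1 and 3, delta45 replicates 2 and 3, or control replicates 1 and 2, with edgeR adjusted p up to 0.121. The delta45 call was lost with library totals as the scale (edgeR adjusted p = 0.0593). It was also lost without KD replicate 2, any 1 of the delta45 libraries, FL replicate 3, or control replicate 1 or 2, with edgeR adjusted p up to 0.183. FL and delta45 did not differ beyond their spread (log2 -0.12, interval -0.69 to 0.45).

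Id2 and Id3 were near the lower end of what these libraries measure. Id2, which antagonizes E proteins in innate lymphoid cells among others, had 1.56, 3.37 and 3.41 CPM in FL, 3.61, 4.34 and 4.16 in delta45, 6.34, 4.99 and 5.25 in KD, and 4.29, 3.51 and 4.7 in control. The FL libraries were below all others and the KD libraries above all others, while delta45 and control overlapped. The only called difference was FL against KD, 1.97-fold lower (log2 -0.98 ± 0.27, edgeR adjusted p = 0.00737). FL against control stood at -0.57 (edgeR adjusted p = 0.0878), FL against delta45 at -0.51 (edgeR adjusted p = 0.125) and KD against control at 0.41 (edgeR adjusted p = 0.211). With library totals as the scale, Id2 was also called lower in FL against control (log2 -0.79, edgeR adjusted p = 0.0286). The same held in FL against delta45 (log2 -0.79, edgeR adjusted p = 0.028). The median gene stood at -0.23 and -0.28 in these comparisons under that scaling.

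Id3, an ID gene induced through EGR factors in thymocytes, had 0.313, 0.116 and 0.177 CPM in FL, 0.656, 1.21 and 1.44 in delta45, 2.72, 3.37 and 3.06 in KD, and 1.93, 2.31 and 1.18 in control. These levels came from 7 reads over the FL group, 52 over delta45, 105 over KD and 61 over control. FL was below every other library and KD above, while delta45 and control overlapped. FL was 14.6-fold lower than KD (log2 -3.86 ± 0.47, edgeR adjusted p = 1.63e-05), 8.44-fold lower than control (log2 -3.08 ± 0.50, edgeR adjusted p = 0.000153) and 5.17-fold lower than delta45 (log2 -2.37 ± 0.51, edgeR adjusted p = 0.00162). With only FL and delta45 in the fit, Id3 did not pass the filter on low counts. The change between FL and delta45 was therefore tested only with other groups in the fit. Delta45 was 2.81-fold lower than KD (log2 -1.49 ± 0.34, edgeR adjusted p = 0.00225). The remaining comparisons missed the threshold, KD against control at 0.79 (edgeR adjusted p = 0.0677) and delta45 against control at -0.71 (edgeR adjusted p = 0.101). In all 3 measured ID genes the mean was highest in KD and lowest in FL. Parts of the order were not resolved, since Id2 in delta45 against control (log2 -0.06, edgeR adjusted p = 0.857) and Id1 in FL against delta45 (log2 -0.12, edgeR adjusted p = 0.755) lay within the spread and turned sign with 1 library left out. Id4, the remaining ID gene of the mouse, had no reads in any library.

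**Figure D2:**
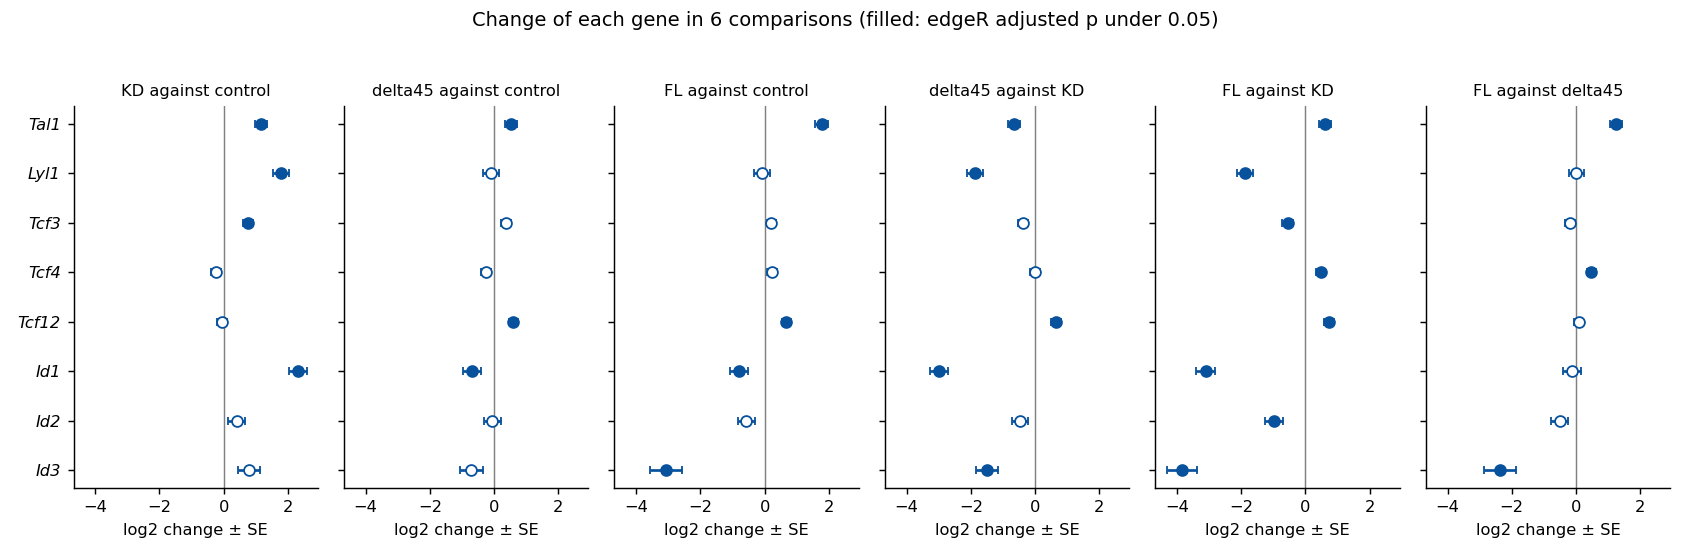
Log2 change of each of the 8 genes, with its SE, in the 6 comparisons between groups; filled points passed the edgeR test at an adjusted p under 0.05. Lyl1 and Id1 stand to the right in KD against control (1.79 and 2.31) and to the left in both delta45 and FL against KD, while Id3 is far to the left wherever FL is compared.

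Counted by comparison, KD against control had 4 of the 8 genes called, with 49.7% of all 12837 tested genes called. All 4, Tal1, Lyl1, Tcf3 and Id1, were higher in KD, where 25.6% of tested genes were called higher and 24.1% lower. The median change of the 8 genes was 0.77, against 0.02 for all tested genes. In delta45 against control 3 of 8 were called, against 64.4% of tested genes, 31.9% higher and 32.5% lower. These were Tal1 and Tcf12, both higher, and Id1, lower, of which Tcf12 alone was called without control replicate 1. In FL against control 4 of 8 were called, against 59.3% of tested genes, 28.1% higher and 31.2% lower. Tal1 and Tcf12 were higher and Id1 and Id3 lower. Medians were -0.08 and 0.06 in these comparisons, against 0.01 and -0.01 for all genes.

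Among the knockdown-derived groups the number called varied most. In FL against KD all 8 were called, against 58.0% of tested genes, 26.3% higher and 31.7% lower. Of the 8, Tal1, Tcf4 and Tcf12 were higher and Lyl1, Tcf3, Id1, Id2 and Id3 lower. In delta45 against KD 5 of 8 were called, against 59.9% of tested genes, 29.2% higher and 30.7% lower. Tcf12 was higher and Tal1, Lyl1, Id1 and Id3 were lower. In FL against delta45 3 of 8 were called, against 52.8% of tested genes, 25.8% higher and 27.0% lower. Tal1 and Tcf4 were higher there and Id3 lower. Median changes were -0.77, -0.56 and -0.06 in this order, against -0.06, -0.01 and -0.01 for all genes. Counted in either direction, no number called outside FL against KD exceeded the share among all genes by 1 gene or more. Counted by direction, 3 counts exceeded that share by more than 1 gene. These were the genes higher in KD against control and those lower in delta45 against KD and in FL against KD. The differences were not tested. The comparisons share groups, so their counts are not independent of one another.

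Read ratios within a library do not depend on scaling and are given as descriptions. Reads of Id1, Id2 and Id3 together per 100 reads of Tcf3, Tcf4 and Tcf12 were 1.5, 2.92 and 2.59 in FL, 2.63, 3.1 and 3.14 in delta45, 11.5, 17.3 and 22.0 in KD, and 6.85, 5.12 and 4.86 in control. KD was above control in every library, control above FL and delta45, and FL and delta45 overlapped. These are reads, not molecules or protein, since gene lengths of the files' build were not used here. Id1 made up 72.7 ± 2.68% of the ID reads in FL, 62.8 ± 1.13% in delta45, 87.9 ± 4.92% in KD and 69.5 ± 4.06% in control (SD, n = 3 each). Among E-protein reads Tcf3 had 41.9 ± 5.79% in FL, 47.8 ± 4.94% in delta45, 62.8 ± 5.9% in KD and 48.3 ± 5.82% in control. Tcf12 had 44.5 ± 3.18% in FL, 42.5 ± 3.79% in delta45, 27.2 ± 6.38% in KD and 36.6 ± 3.84% in control. Tcf3 reads per 100 Tcf12 reads were 74.1 to 112 in FL, 89.9 to 128 in delta45, 162 to 284 in KD and 102 to 155 in control, with KD above all other libraries. Lyl1 reads per 100 Tal1 reads were 1.8, 2.46 and 2.3 in FL, 4.55, 5.36 and 5.72 in delta45, 10.4, 14.6 and 11.4 in KD, and 8.81, 8.5 and 6.8 in control. No pair of groups overlapped in this ratio.

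**Figure D3:**
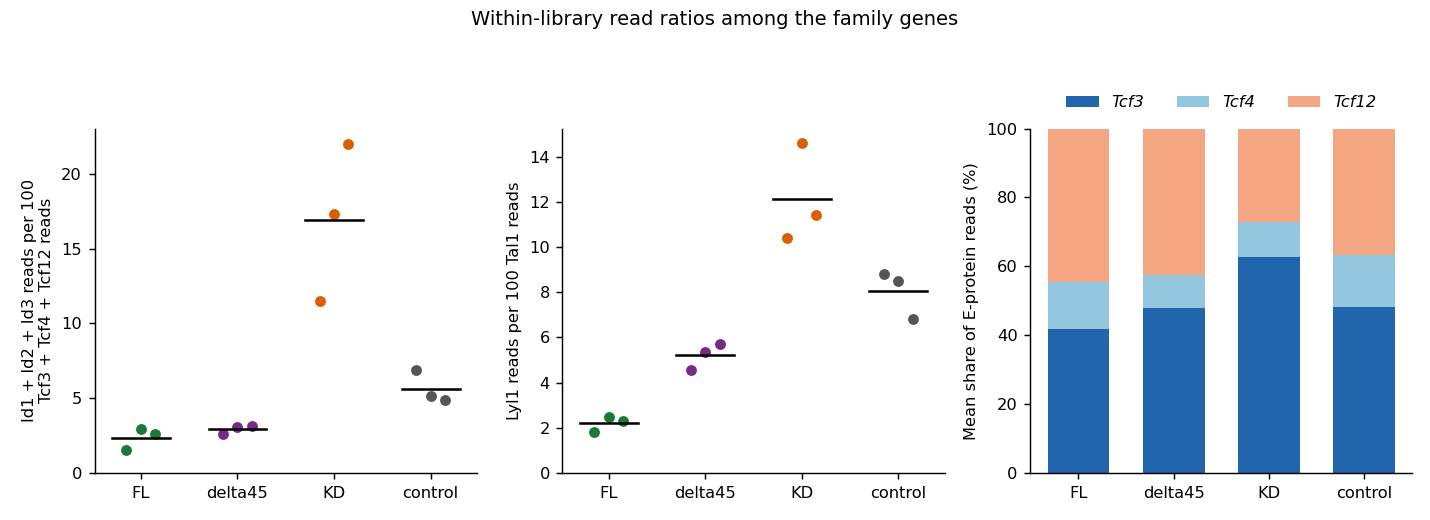
Left, reads of the ID genes per 100 reads of the E-protein genes in each library; middle, Lyl1 reads per 100 Tal1 reads; right, mean share of each E-protein gene in their summed reads (%). Bars in the left and middle plots are means of 3 libraries. The ID ratio is 11.5 to 22.0 in KD and under 7 elsewhere, and Tcf3 takes 62.8% of E-protein reads in KD.

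The genes on either side of Tal1 in the GENCODE M21 annotation, Pdzk1ip1 and Stil, had group means in another order. Pdzk1ip1, the next gene downstream, had 6.25, 8.14 and 6.36 CPM in FL, 1.69, 1.28 and 1.89 in delta45, 75.9, 74.6 and 129 in KD, and 1.07, 1.1 and 2.06 in control. It was far higher in KD than anywhere else, whereas Tal1 was highest in FL. KD exceeded control 61.7-fold (log2 5.95 ± 0.30, edgeR adjusted p = 2.06e-08) and FL exceeded control by a log2 change of 2.19 ± 0.31 (edgeR adjusted p = 5.64e-05). Stil, the centriole gene just upstream, averaged 14.1 ± 1.69 CPM in FL, 55.0 ± 3.82 in delta45, 35.5 ± 12.9 in KD and 41.8 ± 6.32 in control (SD, n = 3 each). Stil fell in FL against delta45 (log2 -1.97 ± 0.22, edgeR adjusted p = 7.48e-06), where Tal1 rose. Cmpk1, one gene farther upstream, averaged 131 ± 13.8 CPM in FL, 85.4 ± 6.69 in delta45, 91.6 ± 39.1 in KD and 67.3 ± 30.7 in control (SD, n = 3 each), the order of the Tal1 means. Its only called change was FL against control (log2 0.95 ± 0.31, edgeR adjusted p = 0.0186). That call was lost with library totals as the scale (log2 0.73, edgeR adjusted p = 0.0672) and without FL replicate 2, control replicate 1 or control replicate 2 (edgeR adjusted p of 0.052, 0.0799 and 0.0815). Cyp4x1 on the far side had too few reads to test.

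**Figure D4:**
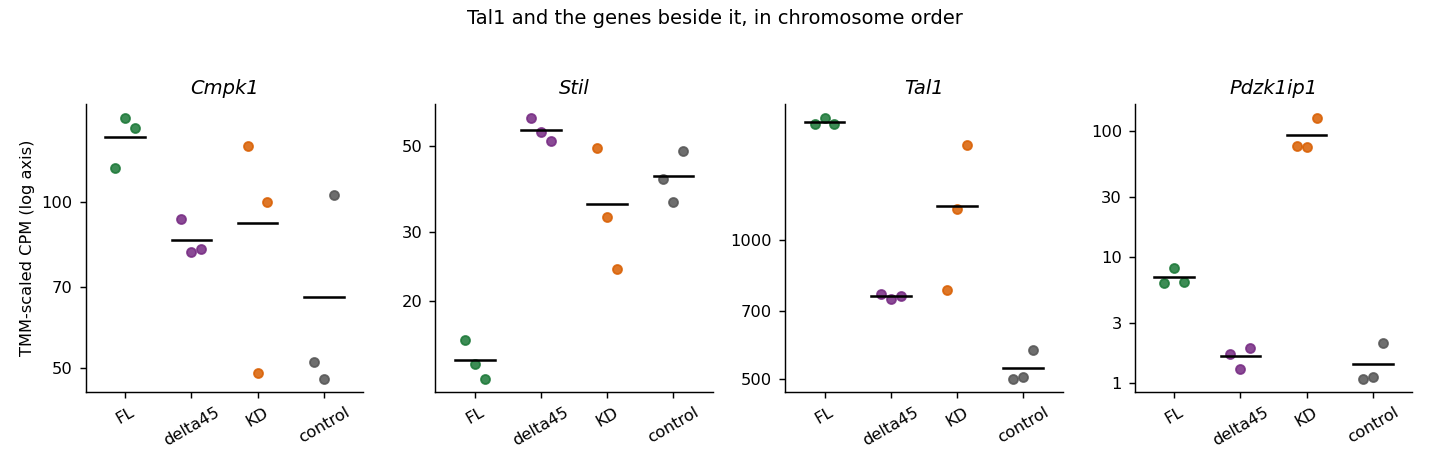
TMM-scaled CPM (log axis) of Cmpk1, Stil, Tal1 and Pdzk1ip1, in chromosome order, in the FL, delta45, KD and control libraries; points are libraries and bars are means of 3. Tal1 is highest in FL, Stil is lowest there at 14.1 CPM on average, and Pdzk1ip1 is highest in KD at 74.6 to 129 CPM.

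Of 15 genes for proteins reported with TAL1 in the LDB1 complex, 5 were called higher and 4 lower in KD against control, where 25.6% of all tested genes were higher and 24.1% lower. In FL against delta45, 8 were higher and 3 lower, with 25.8% and 27.0% among all tested genes. The median changes were 0.24 and 0.56, against 0.02 and -0.01 for all genes. With library totals as the scale 5 rather than 8 were called higher in FL against delta45. The 15 include Ldb1 itself, the gene knocked down here and carried by the constructs. Ldb1 was among the 4 lower in KD against control (log2 -2.47). It was also among the 8 higher in FL against delta45 (log2 2.17), from reads that include construct mRNA. Gata2, the GATA factor of progenitors, averaged 58.7 ± 3.15 CPM in FL, 32.9 ± 3.02 in delta45, 58.7 ± 8.96 in KD and 12.9 ± 0.767 in control (SD, n = 3 each). It was higher in KD than in control by 2.19 ± 0.13 on the log2 scale (edgeR adjusted p = 9.52e-08), and like Tal1 it was above control in all 3 knockdown-derived groups. Cbfa2t3, which encodes the ETO-family corepressor of the complex, averaged 740 ± 34.7 CPM in FL, 292 ± 16.4 in delta45, 198 ± 24.4 in KD and 314 ± 32.4 in control. It fell in KD against control (log2 -0.67 ± 0.11, edgeR adjusted p = 0.000373) and rose in FL against delta45 (log2 1.34 ± 0.12, edgeR adjusted p = 6.28e-07). In KD against control Ssbp3, a single-stranded DNA-binding protein that stabilizes LDB1, rose by 0.84 ± 0.11 (edgeR adjusted p = 4.76e-05), and Lmo4 fell by 0.91 ± 0.13 (edgeR adjusted p = 7.47e-05).

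Erythroid genes known to be bound by the TAL1 complex were higher in FL, like Tal1, but lower in KD and delta45 than in control, where Tal1 was called higher. Of 9 that could be tested, 7 were called higher and 0 lower in FL against control (median 1.3), 8 higher and 0 lower in FL against KD (median 3.4), and 9 higher in FL against delta45 (median 3.65). In KD against control 0 were called higher and 8 lower (median -2.03), and in delta45 against control 0 higher and 7 lower (median -2.42). In delta45 against KD, where Tal1 was lower, 3 were called higher and 3 lower. The medians of all genes lay between -0.06 and 0.02. Over these comparisons 25.6 to 31.9% of all tested genes were called higher and 24.1 to 32.5% lower. Alas2, the first enzyme of erythroid heme synthesis, averaged 5166 ± 394 CPM in FL, 305 ± 15.2 in delta45, 488 ± 151 in KD and 1632 ± 115 in control (SD, n = 3 each). In KD against control it fell by 1.74 ± 0.18 on the log2 scale (edgeR adjusted p = 7.03e-06). Without KD replicate 1, 1 of the 9 was called higher in KD against control, and 5 rather than 3 lower in delta45 against KD. The 0 called lower in FL against control became 1 or 2, and that in FL against KD became 1, under most settings tried.

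Other HLH genes mostly had few or no reads. Of 27 tissue-restricted, HES, HEY and related genes, 11 had no reads, 21 were under 1 CPM in every library, and 6 could be tested. All 27 had an entry in the counts, so none was missing from the annotation used for counting. Why a gene had no reads was not tested. Among all tested genes 49.7% were called in KD against control. In KD against control 1 was called higher and 3 lower, and 2 were higher without KD replicate 1 or KD replicate 3. Hes1, a Notch-responsive repressor, averaged 3.95 ± 1.07 CPM in FL, 22.5 ± 2.35 in delta45, 35.3 ± 2.72 in KD and 3.29 ± 0.51 in control (SD, n = 3 each). It was 10.7-fold higher in KD than in control (log2 3.41 ± 0.19, edgeR adjusted p = 5.03e-08), and FL fell below delta45 (log2 -2.52 ± 0.19, edgeR adjusted p = 1.67e-07). Like Lyl1 and Id1, Hes1 was highest in KD, but in delta45 it stayed above control (log2 2.76 ± 0.19, edgeR adjusted p = 9.27e-08). Bhlhe40, a repressor that responds to stress and cytokines, fell in KD against control by 1.61 ± 0.21 (edgeR adjusted p = 5.01e-05).

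**Figure D5:**
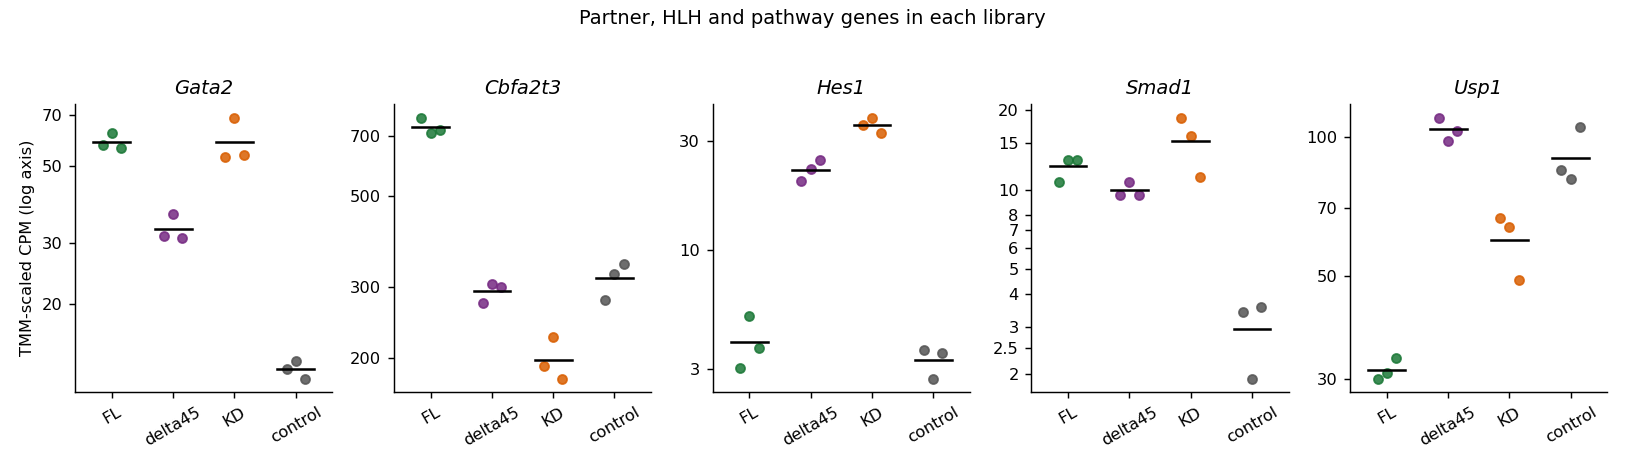
TMM-scaled CPM (log axis) of Gata2, Cbfa2t3, Hes1, Smad1 and Usp1 in the FL, delta45, KD and control libraries; points are libraries and bars are means of 3. Gata2 and Smad1 are lowest in control, Cbfa2t3 is highest in FL, Hes1 is highest in KD, and Usp1 is lowest in FL.

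Of 26 genes of BMP and TGF-beta signalling, pathways known to act on ID levels, 19 were tested, of which 6 were called higher and 4 lower in KD against control (median 0.2, against 0.02 for all genes). That is close to the 49.7% called among all tested genes. The 6 became 3 without control replicate 2 and with only the 2 groups in the fit. In FL against delta45, 10 were called higher and 3 lower, against 25.8% and 27.0% of all tested genes, and 4 were higher with library totals as the scale. Smad1, a transducer of BMP signals to Id1, averaged 12.3 ± 1.32 CPM in FL, 9.93 ± 0.698 in delta45, 15.3 ± 3.82 in KD and 2.97 ± 0.928 in control (SD, n = 3 each). It rose in KD against control (log2 2.34 ± 0.25, edgeR adjusted p = 8.57e-06), FL against control (log2 2.02 ± 0.25, edgeR adjusted p = 1.55e-05) and delta45 against control (log2 1.72 ± 0.25, edgeR adjusted p = 4.9e-05). Its part in the Id1 levels was not tested. The activin receptor gene Acvr2a fell in KD against control by 1.78 ± 0.26 (edgeR adjusted p = 0.000113).

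Of 12 EGR and immediate early genes, 9 were tested, of which 3 were called higher and 1 lower in KD against control (median 0.3, against 0.02 for all genes), with 49.7% called in either direction among all tested genes. In FL against delta45, 4 were higher and 3 lower, with 52.8% called among all tested genes. The 4 became 2 with library totals as the scale. Ier2, an immediate early gene, averaged 19.5 ± 2.73 CPM in FL, 34.4 ± 6.59 in delta45, 54.0 ± 12.9 in KD and 29.4 ± 4.27 in control (SD, n = 3 each). It was higher in KD than in control (log2 0.88 ± 0.20, edgeR adjusted p = 0.0027). Srf, the serum response factor that drives such genes, rose in KD against control by 0.68 ± 0.12 (edgeR adjusted p = 0.00038). Nab1 was the 1 gene called lower in that comparison (log2 -0.74 ± 0.16, edgeR adjusted p = 0.00199).

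The 5 genes for proteins reported to act in stabilizing or degrading ID or E proteins split in both comparisons. In KD against control 1 was called higher and 3 lower, and in FL against delta45 2 higher and 2 lower. Among all tested genes 49.7% and 52.8% were called in these comparisons, and the 2 higher became 1 with only the 2 groups in the fit. The 1 gene higher in KD against control, Skp2, lost its call without KD replicate 1, control replicate 1 or control replicate 2, and with only the 2 groups in the fit. Usp1, a deubiquitinase reported to stabilize ID proteins in human osteosarcoma cells, averaged 31.4 ± 1.67 CPM in FL, 104 ± 6.12 in delta45, 59.9 ± 9.49 in KD and 90.1 ± 12.7 in control (SD, n = 3 each). It fell in KD against control (log2 -0.59 ± 0.13, edgeR adjusted p = 0.00276), where Id1 rose, and in FL against delta45 (log2 -1.72 ± 0.14, edgeR adjusted p = 3.28e-07). Wdr48, the activating partner of USP1, fell in KD against control by 0.57 ± 0.09 (edgeR adjusted p = 0.000233). Of 6 coregulators of E proteins 5 were tested, with 2 called higher and 1 lower in KD against control and 1 higher and 2 lower in FL against delta45, beside the same shares among all genes. The 2 became 1 without control replicate 3, and the 1 became 0 without FL replicate 1 and with library totals as the scale. Kat2a, an acetyltransferase, averaged 71.9 ± 0.875 CPM in FL, 217 ± 11.1 in delta45, 131 ± 5.84 in KD and 67.7 ± 5.07 in control, and rose in KD against control by 0.96 ± 0.09 (edgeR adjusted p = 4.35e-06). Kat2b was the 1 coregulator gene called lower in that comparison (log2 -0.64 ± 0.17, edgeR adjusted p = 0.00846).

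Lymphoid genes that E proteins drive were close to absent. Of 16, 15 were under 1 CPM in every library, and Rag2, Pax5, Il7r and Cd8a had no reads in any. Their summed level was 0.208 to 0.824 CPM in FL, 3.1 to 3.19 in delta45, 9.44 to 17.4 in KD and 5.72 to 5.89 in control, most of it from Cd3g in delta45, KD and control. Cd3g, a chain of the T cell receptor complex, averaged 0.366 ± 0.229 CPM in FL, 2.26 ± 0.197 in delta45, 13.1 ± 3.49 in KD and 5.3 ± 0.195 in control (SD, n = 3 each). Like the means of the ID genes, its mean was highest in KD and lowest in FL, and it rose in KD against control by 1.31 ± 0.25 (edgeR adjusted p = 0.000915).

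Likeness of pattern was measured as the root mean square difference in centred log2 CPM over the 12 libraries. Among 9412 genes the closest to Tal1 were Tspan32 and Rdm1, both at 0.09. Tspan32, a tetraspanin gene, had 437, 447 and 486 CPM in FL, 216, 205 and 209 in delta45, 191, 337 and 473 in KD, and 134, 137 and 153 in control, so it followed Tal1 through the spread of the KD libraries. The closest to Lyl1 were Atf5 (0.17) and Plod1 (0.2), both highest in KD, where Atf5 averaged 180 ± 62.9 CPM, against 57.1 ± 9.67 in control (SD, n = 3 each). Tcf3 was most like Foxp4 and Mogs (0.11 each), Tcf4 most like Ube3c (0.14) and Kctd9 (0.15), and Tcf12 most like Arhgap21 and Mtdh (0.07 each). Arhgap21 averaged 195 ± 23.8 CPM in FL, 179 ± 5.59 in delta45, 116 ± 25.9 in KD and 126 ± 1.39 in control. Id1 had no near match, with Ak8 at 0.4 and Psmb8 at 0.42, and Lyl1 came 15th at 0.53. Id2 was most like Med30 (0.22) and Txn1 (0.24), and Id3 most like Insrr and Hsd11b2 (0.36 each), from genes at a mean of at least 5 CPM.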

How the data were processed

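Polyadenylated RNA of 12 libraries was analysed from the authors' deposited read counts, whole numbers per Ensembl gene, not normalized. Per the labels' protocols, an RNeasy kit gave the RNA and a TruSeq RNA V2 kit, which does not mark strand, the libraries. The submitters' processing notes name build mm9, TopHat 1.4.1, cutadapt 1.1, HTSeq 0.5.3p9 and DESeq 1.10.1. Not given in the sources used here are the order and settings of these tools and the gene annotation. The 5 closing entries of each file that name no gene were left out of totals, and reads aligned to several places were 38.69 to 53.31% of all tallied reads. A supplied table gave symbols for 32919 of 37991 identifiers.

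Counts were filtered with filterByExpr, which left 12837 genes, scaled by TMM and tested by the quasi-likelihood method of edgeR 4.0.16 in R 4.3.3, with 1 mean per group, all 12 libraries and no covariate. A gene was called where its p, adjusted by Benjamini-Hochberg over all tested genes, was under 0.05. SE is the log2 change over the root of F, and intervals are at the 95% level. CPM is not compared between genes. The alternatives were RLE scaling, library totals only, no filter, at least 1 CPM in 3 libraries, DESeq2 1.42.0, only the 2 groups compared, a replicate block, and each library left out. The tests were checked on simulated counts with few changed genes, so the check did not cover changes as widespread as those called here. Replicates all differed by more than sampling noise.

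The 8 genes and all gene lists were chosen with earlier results of these data known. Named list genes were up to 4 called members per list with the smallest adjusted p in KD against control and in FL against delta45, of which the text gives those that help describe the list. Likeness was ranked among genes of mean CPM of at least 5, with a prior count of 2, leaving out clone, predicted-gene and pseudogene names.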

Additional observations from a re-analysis of the deposited data

How the results depend on the processing

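Of the 27 called changes of the 8 genes, 20 kept their call in every alternative that tested them. The other 7 lost it in at least 1, and 0 reversed. There were 19 alternatives. Id3 in FL against delta45, 1 of the 20, was filtered out with only those groups in the fit and was not tested there. Scaling by library totals moved the median gene to -0.23 in FL against control, -0.33 in FL against KD and -0.28 in FL against delta45. The share of called genes that were higher then became 31.8, 26.7 and 29.2%, against 47.4, 45.4 and 48.8% with TMM. Signs turned only among changes that were not called. With library totals as the scale, Tcf3 in FL against control became -0.03, Lyl1 in FL against delta45 became -0.26 and Tcf12 in FL against delta45 became -0.2. With single libraries left out, the log2 ranges that crossed 0 were -0.24 to 0.12 (Tcf12, KD against control), -0.14 to 0.01 (Lyl1, delta45 against control), -0.17 to 0.06 (Id2, delta45 against control), -0.19 to 0.05 (Lyl1, FL against control), -0.07 to 0.06 (Tcf4, delta45 against KD), -0.09 to 0.14 (Lyl1, FL against delta45) and -0.33 to 0.1 (Id1, FL against delta45). The count of the 8 genes called in delta45 against control ranged from 1, without control replicate 1, to 4. In FL against KD it ranged from 6 to 8. The ratio of ID to E-protein reads in delta45 was 2.31 per 100 with Id2 and Tcf4 left out, against 2.96, and adding Id4 changed no ratio. The labels do not say that libraries with the same replicate number belong together. Deviations of same-numbered libraries correlated at -0.196 to 0.269, with 9 of 18 pairs over 0.1, so pairing was neither shown nor excluded, and the number was not used in the reported tests. With that number as a replicate block, Tcf3 passed the test in delta45 against control (0.37, edgeR adjusted p = 0.0199) and in delta45 against KD (-0.37, edgeR adjusted p = 0.021), and no other call of the 8 genes changed. Where a library was left out of a group of 3, the spread was pooled over all groups. Depth limits Id3, with 7 reads over the FL group, and Id2, with 15 to 58 reads in each FL library.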
